A study of Mus musculus with 6 samples.

Results

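Guanylate-binding proteins (Gbps) were followed in mouse uterus at 3.5 days post coitum (dpc), in 3 Stat3 d/d uterine samples, with the Stat3 alleles deleted, and 3 Stat3 f/f samples, whose alleles are flanked by recombination sites. All samples came from female mice, and total RNA of uterine tissue was read on Affymetrix expression arrays. The members were the probe sets whose platform annotation gives exactly 1 of the symbols Gbp2, Gbp2b (formerly Gbp1), Gbp3, Gbp6, Gbp7 and Gbp8. The rule found 9 probe sets for these 6 genes among the 1382 probe sets and 987 singly annotated genes of the deposited table: a pair each for Gbp2, Gbp6 and Gbp7, and 1 each for Gbp2b, Gbp3 and Gbp8. The sources used here do not give the strain, the age or the Cre driver that deleted Stat3, so the cells that lost the gene are not named here. They also do not say whether different arrays stand for different animals, so p-values measure only array-to-array spread, which could be technical.

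Gbps are large GTPases of the dynamin superfamily that are made in response to interferons, above all interferon gamma, whose receptor carries the kinases JAK1 and JAK2. They assemble on the vacuoles and surfaces of intracellular bacteria and protozoa, and they work beside the immunity-related GTPases (IRGs), a second interferon-induced family. STAT3, the factor deleted here, answers mainly to interleukin-6 and related cytokines. In the mouse genome the Gbp genes lie in 2 clusters, and by RefSeq (GRCm38.p6) Gbp7, Gbp3, Gbp2b and Gbp2 follow each other in that order on chromosome 3, while Gbp8 and Gbp6 lie on chromosome 5.

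Promoters are shown because interferon signals reach genes through known elements near their starts. The 6 genes were all higher in Stat3 d/d, but they were chosen with results of these data known. Whether they share a control was not tested. RefSeq promoter windows (GRCm38.p6, 250 bases before to 50 bases after an annotated start) were matched for 4 of the 6 genes, all of the chromosome 3 cluster. Each was searched on both strands for the gamma-activated site TTCNNNGAA (GAS, the element of STAT dimers, which reads the same on both strands) and for the interferon-stimulated response element core GAAANNGAAA, or TTTCNNTTTC on the other strand (ISRE, an element of interferon regulatory factors). Capitals mark the matches, and the lines run 5′ to 3′ on the plus strand.
Gbp7, chr3:142530086-142530385: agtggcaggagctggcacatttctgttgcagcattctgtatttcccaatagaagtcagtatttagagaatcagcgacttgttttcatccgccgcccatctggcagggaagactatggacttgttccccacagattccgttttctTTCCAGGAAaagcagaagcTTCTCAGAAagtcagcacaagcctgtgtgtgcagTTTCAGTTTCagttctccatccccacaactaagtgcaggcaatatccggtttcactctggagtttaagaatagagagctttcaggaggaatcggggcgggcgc
Gbp3, chr3:142559794-142560093: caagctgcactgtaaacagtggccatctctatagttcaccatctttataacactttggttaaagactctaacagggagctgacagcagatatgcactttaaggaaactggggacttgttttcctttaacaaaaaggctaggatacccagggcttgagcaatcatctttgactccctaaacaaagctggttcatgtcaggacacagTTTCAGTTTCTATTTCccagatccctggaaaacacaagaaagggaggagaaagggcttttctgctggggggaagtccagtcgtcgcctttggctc
Gbp2b, chr3:142594597-142594896: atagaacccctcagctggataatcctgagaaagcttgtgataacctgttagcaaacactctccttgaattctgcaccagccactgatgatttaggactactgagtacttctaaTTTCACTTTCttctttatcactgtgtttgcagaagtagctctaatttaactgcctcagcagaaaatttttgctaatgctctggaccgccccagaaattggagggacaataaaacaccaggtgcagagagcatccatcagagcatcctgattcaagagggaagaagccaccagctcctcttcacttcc
Gbp2, chr3:142620413-142620712: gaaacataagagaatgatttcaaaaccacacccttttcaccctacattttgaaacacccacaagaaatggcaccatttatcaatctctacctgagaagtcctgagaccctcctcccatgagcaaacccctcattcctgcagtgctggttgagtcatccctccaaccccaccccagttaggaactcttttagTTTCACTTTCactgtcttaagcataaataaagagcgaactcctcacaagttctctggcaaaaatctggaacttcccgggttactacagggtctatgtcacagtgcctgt

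All 4 genes held an ISRE core match, each as TTTCNNTTTC on the plus strand, which was 45 bases before the start in Gbp3, 53 in Gbp7, 59 in Gbp2 and 137 in Gbp2b. Gbp3 held a second match 39 bases before the start that overlaps the first. Its other annotated start held no match to either motif. Gbp7 alone of the 4 held GAS matches, TTCCAGGAA at 106 and TTCTCAGAA at 87 bases before the start. Of all 32851 promoter windows of this length, 3.44% held an ISRE core match and 8.30% a GAS match. Counted by gene, an ISRE core match stood in 57 of 518 genes that were higher in Stat3 d/d (11.0%), in 5 of 240 that were lower (2.08%) and in 1079 of all 27025 genes (3.99%). For GAS these shares were 56 of 518 (10.8%), 20 of 240 (8.33%) and 2582 of 27025 (9.55%). Of the 3 listed interferon-induced GTPase genes in the table with a promoter window, 3 held an ISRE core match and 2 a GAS match. A match of letters does not show that a factor binds there.

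**Figure D1:**
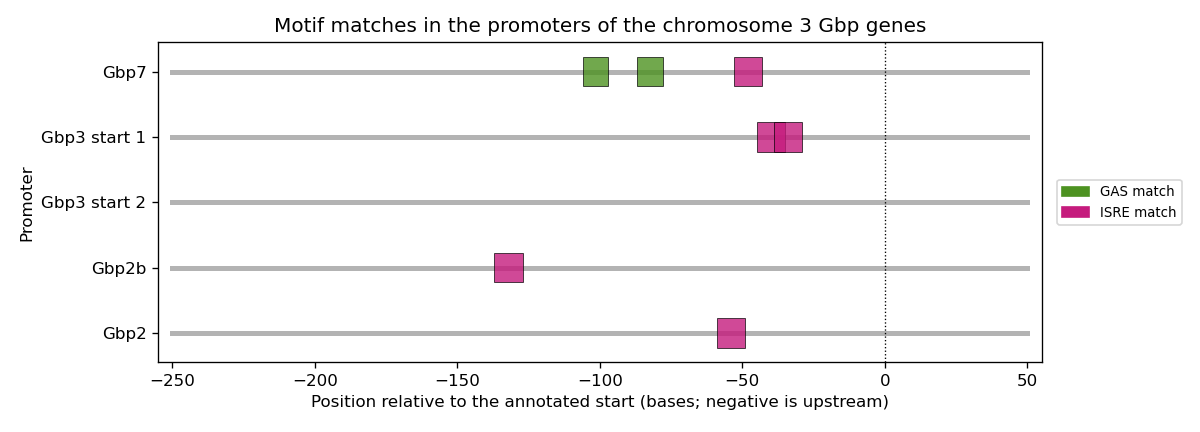
Positions of motif matches in the 5 RefSeq promoter windows of Gbp7, Gbp3 (both annotated starts), Gbp2b and Gbp2, in bases from the annotated start (dotted line). ISRE core matches (magenta) stand 39 to 137 bases before the start in 4 windows, and both GAS matches (green) are in Gbp7.

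The deposited values are normalized intensities on a linear scale, from 2.47 to 4352 over the table, and the table had been selected on the comparison reported here. The group means of each of its 1382 probe sets are 1.5-fold or more apart, and in each the 3 Stat3 d/d values lie wholly above or wholly below the 3 Stat3 f/f values. In limma, with values taken as log2(intensity + 1) and a threshold of 0.05 on the p-value adjusted over the table, 100% of the probe sets passed, 67.4% of them higher in Stat3 d/d, which is also the share with groups that do not overlap and Stat3 d/d above. Each Gbp probe set was therefore bound to be separated and to pass, and only sizes, spread and differences between members describe the genes further. Stat3 itself read 121, 101 and 131 on its brighter probe set in Stat3 d/d replicates 1, 2 and 3, against 262, 356 and 243 in Stat3 f/f replicates 1, 2 and 4. Whether that probe set reads the deleted exons was not examined. Of the listed uterine markers only 2, both stromal, are in the table, and none of the 13 epithelial ones. The progesterone receptor Pgr averaged 694 ± 43.9 in Stat3 d/d and 1261 ± 305 in Stat3 f/f, and the matrix proteoglycan Dcn 12.7 ± 2.71 in Stat3 d/d and 27.6 ± 6.58 in Stat3 f/f (SD, n = 3 each).

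All 9 Gbp probe sets were higher in Stat3 d/d uteri, by 1.12 to 3.50 on the log2 scale, with a median of 1.67, where the median over all 1382 probe sets was 0.70 and over the 931 higher ones 0.93. All 9 passed the threshold, as 100% of the table did. Gbp6, Gbp2b and Gbp8 changed most, Gbp3, Gbp2 and Gbp7 less. At least 4-fold changes upward, on this scale, were seen in 4 of the 9 Gbp probe sets, against 86 probe sets or 6.22% of the table. At least 8-fold changes were seen in 3, against 18 or 1.30%. The 86 and the 18 all lie among the 931 higher probe sets, as the 451 lower ones cannot reach an upward change. Both Gbp6 probe sets are among the 4 and among the 3. After median centring 4 Gbp probe sets reached 4-fold and 1 reached 8-fold, against 3.18% and 0.724% of the table. After quantile normalization 4 and 0 did, against 3.47% and 0.724%. These shares are a description, as the members were chosen with results of these data known. The sizes depend on how arrays are scaled, which a selected table cannot settle. Scaling within this table can itself take off part of a change, as 931 of its probe sets are higher and 451 lower. Centring each array on its median in the table took the median change of all probe sets to 0.24, and quantile normalization took it to 0.25, with 422 higher and 451 lower calls after centring and 436 and 451 after quantile normalization, where 931 and 451 had been called. All 9 Gbp probe sets stayed higher and past the threshold under both, from 0.65 (Gbp3) to 3.03 (Gbp6). In whole tissue, a change in the number of cells that express a gene and a change in RNA per cell cannot be told apart.

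**Figure D2:**
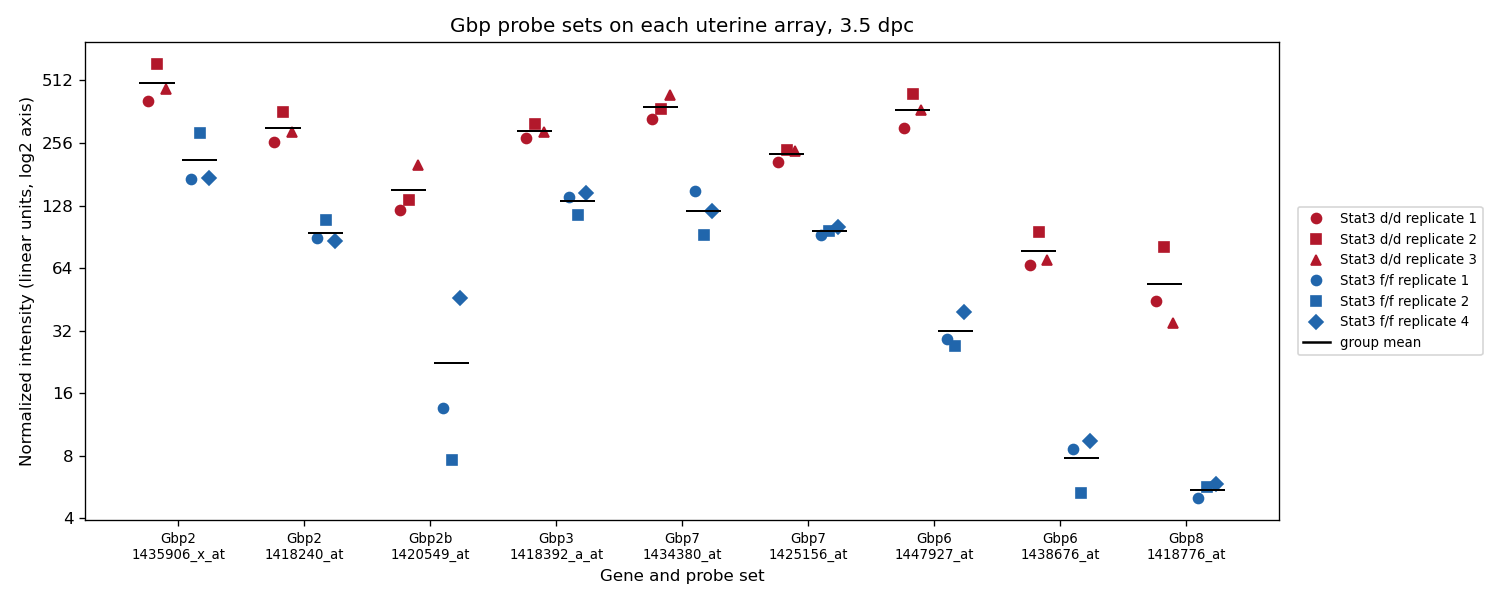
Normalized intensity (linear units on a log2 axis) of each Gbp probe set on each array, with Stat3 d/d in red left of Stat3 f/f in blue, a marker shape per replicate and a bar at each group mean. The groups are separate in all 9 probe sets, and the widest spread is in Gbp2b in Stat3 f/f, between 7.64 and 46.0; levels of different probe sets are not comparable.

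Gbp6, from the chromosome 5 cluster, is one of the large GTPases that are recruited to parasite vacuoles in mouse cells. Its brighter probe set, 1447927_at, read 303, 440 and 370 in Stat3 d/d replicates 1, 2 and 3, against 29.2, 27.2 and 39.4 in Stat3 f/f replicates 1, 2 and 4. The lowest Stat3 d/d array was 7.69 times the highest Stat3 f/f array. The log2 change was 3.50 (SE 0.21, adjusted p = 6.07e-07 in limma), the 10th largest upward change of the table. The dimmer probe set, 1438676_at, read 66.1, 95.9 and 70.1 in Stat3 d/d, against 8.62, 5.33 and 9.43 in Stat3 f/f, and its change was 3.17 (SE 0.23). Both Gbp6 probe sets thus put Stat3 d/d replicate 2 highest and replicate 1 lowest.

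Gbp8, the other chromosome 5 gene, read 44.4, 81.1 and 34.8 in Stat3 d/d, against 5.01, 5.65 and 5.86 in Stat3 f/f. Stat3 f/f lay near the dim end of the table, where 10.2% of probe sets had a lower Stat3 f/f mean. The change was 2.98 (SE 0.27, adjusted p = 1.11e-05 in limma) on the log2(intensity + 1) scale, which understates changes of dim genes, and the ratio of group means was 9.70. The highest Stat3 d/d array was 2.33 times the lowest, the widest such spread among the 9 probe sets.

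Gbp2b, the gene long called Gbp1, read 121, 136 and 200 in Stat3 d/d replicates 1, 2 and 3. In Stat3 f/f replicates 1, 2 and 4 it read 13.6, 7.64 and 46.0, so the highest of these arrays was 6.02 times the lowest. The change was 3.05 with the largest SE of the family (0.49, adjusted p = 0.000428 in limma). Leaving out 1 array moved it between 2.52 and 3.74, the upper value without Stat3 f/f replicate 4 and the lower without Stat3 f/f replicate 2. The other chromosome 3 genes varied less.

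Gbp2, a prenylated Gbp that acts in mouse defence against Toxoplasma, is read by 1435906_x_at and 1418240_at. The brighter, 1435906_x_at, read 406, 614 and 466 in Stat3 d/d, against 172, 287 and 174 in Stat3 f/f, where replicate 2 stood above the other two. Its change was 1.25 (SE 0.24, adjusted p = 0.00107 in limma). The dimmer, 1418240_at, read 258, 363 and 290 in Stat3 d/d, against 89.1, 109 and 86.7 in Stat3 f/f, for a change of 1.66 (SE 0.19). After median centring the change of 1435906_x_at was 0.78 and that of 1418240_at 1.19. The suffix _x of the brighter probe set is the maker's mark for probes that may also match other transcripts, and Gbp genes are alike in sequence, so which members each probe set reads was not tested here.

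Gbp7, known in mouse macrophages for a part in assembling the phagocyte oxidase on bacterial vacuoles, also has a pair of probe sets. The brighter, 1434380_at, read 335, 375 and 435 in Stat3 d/d, against 150, 92.7 and 120 in Stat3 f/f, and its change was 1.67 (SE 0.21, adjusted p = 8.94e-05 in limma). The dimmer, 1425156_at, read 207, 237 and 233 in Stat3 d/d, against 92.2, 96.6 and 101 in Stat3 f/f, the tightest Stat3 f/f values of the family. Its change was 1.22 (SE 0.16), or 0.75 after median centring. The order of the Stat3 f/f arrays differed between the 2 probe sets.

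Gbp3, neighbour of Gbp7 on chromosome 3 and likewise recruited to parasite vacuoles in mouse cells, changed least. It read 272, 318 and 288 in Stat3 d/d, against 141, 116 and 147 in Stat3 f/f. The lowest Stat3 d/d array was 1.85 times the highest Stat3 f/f array. The change was 1.12 (SE 0.17, adjusted p = 0.000318 in limma). It was 0.65 after median centring or quantile normalization, where the medians of the table were 0.24 and 0.25.

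**Figure D3:**
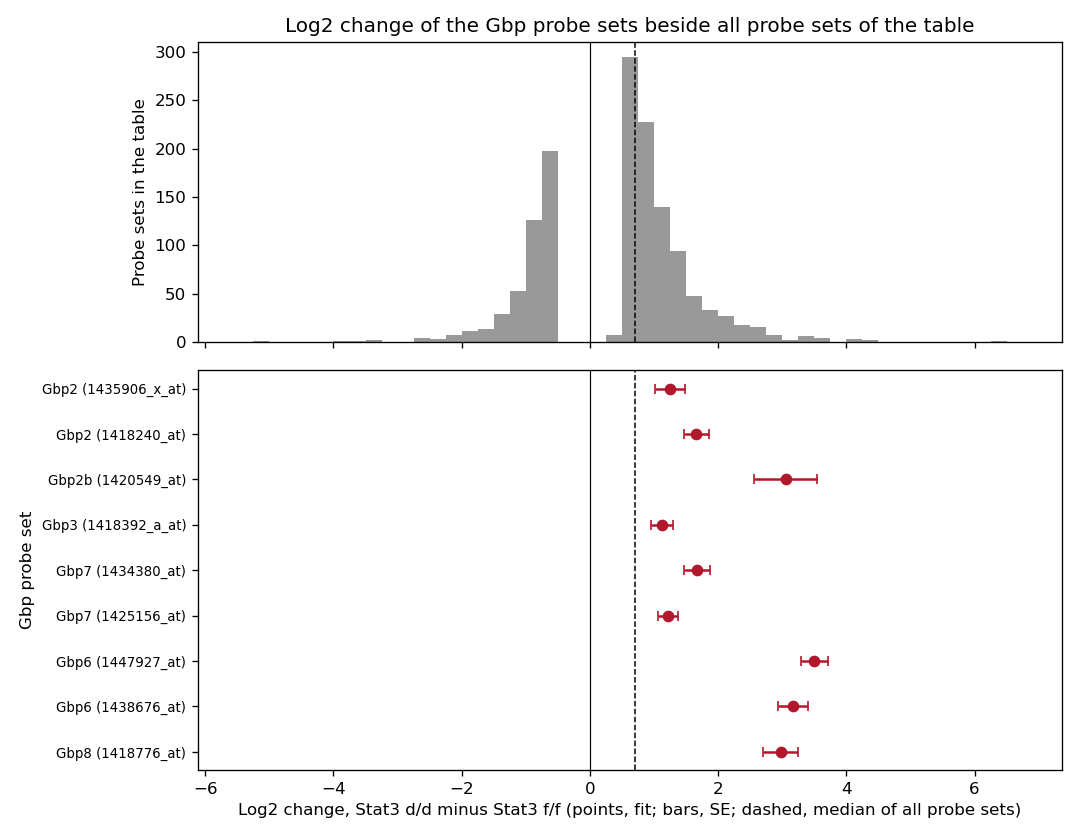
Log2 change (Stat3 d/d minus Stat3 f/f) of all 1382 probe sets as a histogram above, and of the 9 Gbp probe sets with their SE below; the dashed line is the median of all probe sets, 0.70. Gbp6, Gbp8 and Gbp2b lie between 2.98 and 3.50 and the other 5 probe sets between 1.12 and 1.67; the gap around 0 is the selection of the table.

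The next comparison asked whether the Gbp genes changed by different amounts. For each pair of genes the within-array difference of log2 values, from the brightest probe set of each gene, was compared between Stat3 d/d and Stat3 f/f with a two-sided exact permutation test. With 3 arrays against 3 the smallest p it can give is 0.1, so no pair could pass 0.05. Of the 15 pairs, 8 reached that smallest p, with an adjusted p of 0.188 over the pairs. The change of Gbp6 exceeded that of Gbp3 by 2.38 (SE 0.14), of Gbp2 by 2.25 (SE 0.37) and of Gbp7 by 1.83 (SE 0.27), each at p = 0.1 by the exact test. Gbp8 exceeded Gbp3 by 1.85 (SE 0.33) and Gbp2 by 1.73 (SE 0.33), also at p = 0.1 by the exact test. The difference between Gbp6 and Gbp8, neighbours in the order of changes once Gbp2b is set aside, was 0.52 (SE 0.31, exact p = 0.2). Gbp2b could be placed least well, at 0.45 (SE 0.61) under Gbp6 and 0.08 (SE 0.86) over Gbp8. Gbp2 and Gbp3 differed by 0.13 (SE 0.36, exact p = 0.8).

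**Figure D4:**
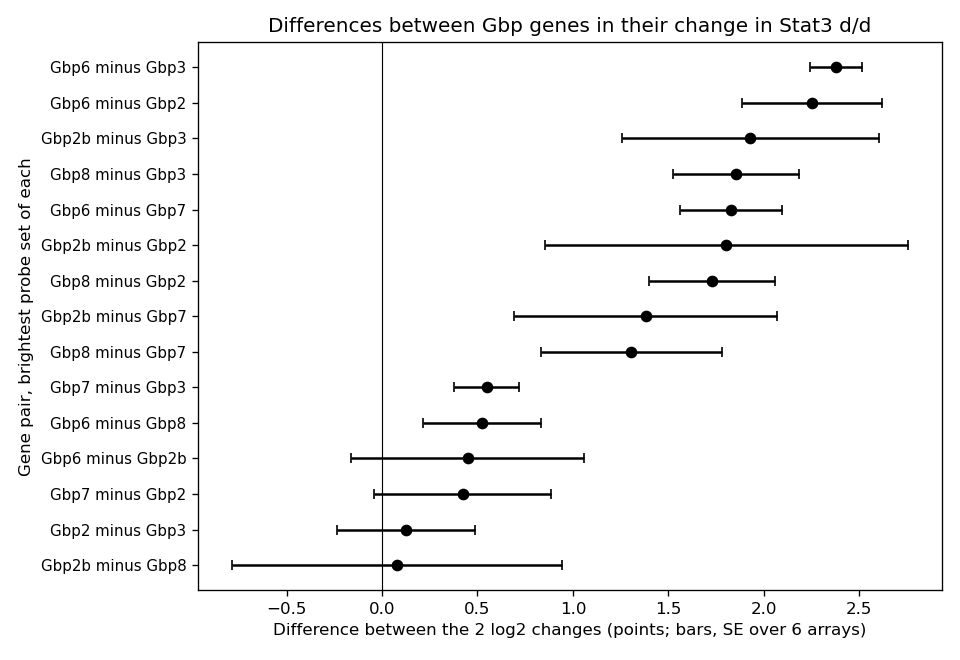
Difference between the log2 changes of 2 Gbp genes for all 15 pairs (points; bars are SE over 6 arrays), named so that the first gene has the larger change. Gbp6 and Gbp8 minus the chromosome 3 genes Gbp3, Gbp2 and Gbp7 lie between 1.31 and 2.38, and pairs with Gbp2b carry the widest bars.

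By chromosome, the 3 probe sets of the chromosome 5 genes changed by 2.98 to 3.50, and the 6 of the chromosome 3 genes by 1.12 to 3.05, with a median of 1.45. Gbp2b was the chromosome 3 gene whose change lay with those of chromosome 5. Within genes read by a pair of probe sets, the brighter differed from the dimmer in its change by -0.41 for Gbp2, 0.45 for Gbp7 and 0.33 for Gbp6, with exact p of 0.1, 0.3 and 0.1 over 6 arrays (adjusted over the 3 genes, 0.15, 0.3 and 0.15). Spread between probe sets of 1 gene was thus smaller than the gaps between Gbp6 and Gbp2, Gbp3 or Gbp7. Of the other protein-coding genes within 10 annotated genes of either cluster, none is among the singly annotated genes of the table; Gbp5, Gbp4, Gbp9 and Gbp10 lie inside these clusters and were not analysed here.

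Within Stat3 d/d, replicate 2 gave the highest value in 7 of the 9 Gbp probe sets and replicate 1 the lowest in 8. Over the 931 probe sets higher in Stat3 d/d, replicate 2 was highest in 31.7% and replicate 1 lowest in 30.0%. Within Stat3 f/f, replicate 4 was highest in 6 of the 9 Gbp probe sets, against 27.2% of the 931. With group means taken off, the brightest probe sets of the 6 genes did not all vary together over the arrays. Pearson's r was 0.83 for Gbp3 with Gbp6, 0.70 for Gbp2b with Gbp3, and -0.56 for Gbp2 with both Gbp2b and Gbp7. The dimmer probe sets of Gbp2, Gbp6 and Gbp7 were not used for r. As the Gbp7 probe sets order the Stat3 f/f arrays differently, the r of Gbp2 with Gbp7 may depend on the probe set. These are descriptions over 6 arrays that share their normalization.

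Leukocyte markers also moved with the comparison. Of 66 listed markers of NK cells, T cells, macrophages, dendritic cells, B cells, neutrophils and all leukocytes, 25 are in the table, and all 25 were higher in Stat3 d/d, by 0.73 to 3.52 with a median of 1.29, where 66.9% of the 987 genes were higher. Klrk1, Adgre1, Fcgr1, Ighm, Coro1a and Laptm5 did not pass after either scaling, nor Gzmc after median centring. The summed intensity of all 25 markers was 3064, 2416 and 1796 in Stat3 d/d replicates 1, 2 and 3, against 1059, 939 and 676 in Stat3 f/f replicates 1, 2 and 4. Counted over all 25, the arrays ranked differently for these markers than for the Gbps, though not for each marker. Over the 931 probe sets higher in Stat3 d/d, its replicate 1 was highest in 40.5% and Stat3 f/f replicate 4 lowest in 41.1%. Stat3 f/f replicate 4, highest of its group in 6 of 9 Gbp probe sets, was the lowest for 22 of the 25 markers. Stat3 d/d replicate 1, lowest of its group in 8 of 9 Gbp probe sets, was the highest for 21 of the 25. The other 4, the NK cell markers Klra8, Klra7, Klrd1 and Eomes, had Stat3 d/d replicate 2 highest, as most Gbp probe sets did. Of these, Klra8 also had replicate 1 lowest, at 46.6, 94.0 and 48.3 in Stat3 d/d replicates 1, 2 and 3. The part of leukocyte number in the Gbp changes was not tested.

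Of the markers, NK cells were represented by 11 of 16, among them Klra8 (3.52, SE 0.25) and Klra7 (2.83, SE 0.23), receptors of the Ly49 family read by probe sets with the suffix _x, and Klrd1, the CD94 chain (2.20, SE 0.20). All 5 markers of leukocytes at large were in the table, with Ptprc, the CD45 phosphatase, at 1.61 (SE 0.24), Cd52 at 1.64 (SE 0.31) and Laptm5 at 0.87 (SE 0.19). Macrophage markers numbered 4 of 12, among them the pore-forming Mpeg1 (1.35, SE 0.25), Ccr2 (1.25, SE 0.31) and Adgre1, the F4/80 antigen (1.08, SE 0.28). Dendritic cell markers numbered 3 of 10, namely Itgax (1.52, SE 0.18), Cd209a (0.89, SE 0.16) and H2-Aa (1.34, SE 0.33). H2-Aa and Laptm5 were also read by probe sets with the suffix _x. T cells had only Cd3g of 10, at 11.6 ± 5.88 in Stat3 d/d and 4.12 ± 0.58 in Stat3 f/f (SD, n = 3 each), B cells only Ighm of 6, and neutrophils none of 7. Outside the leukocytes, the oviduct glycoprotein Ovgp1 was 359 ± 128 in Stat3 d/d and 20.2 ± 12.0 in Stat3 f/f (SD, n = 3 each). Of 12 listed stromal markers only Pgr and Dcn are in the table. They were lower by 0.84 (SE 0.20) and 1.06 (SE 0.22), where 33.1% of genes were lower. Dcn has 1 probe set in the table, a dim one with a Stat3 f/f mean of 27.6, so a change of the stroma as a whole was not tested. None of the listed smooth muscle or endothelial markers is in the table.

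**Figure D5:**
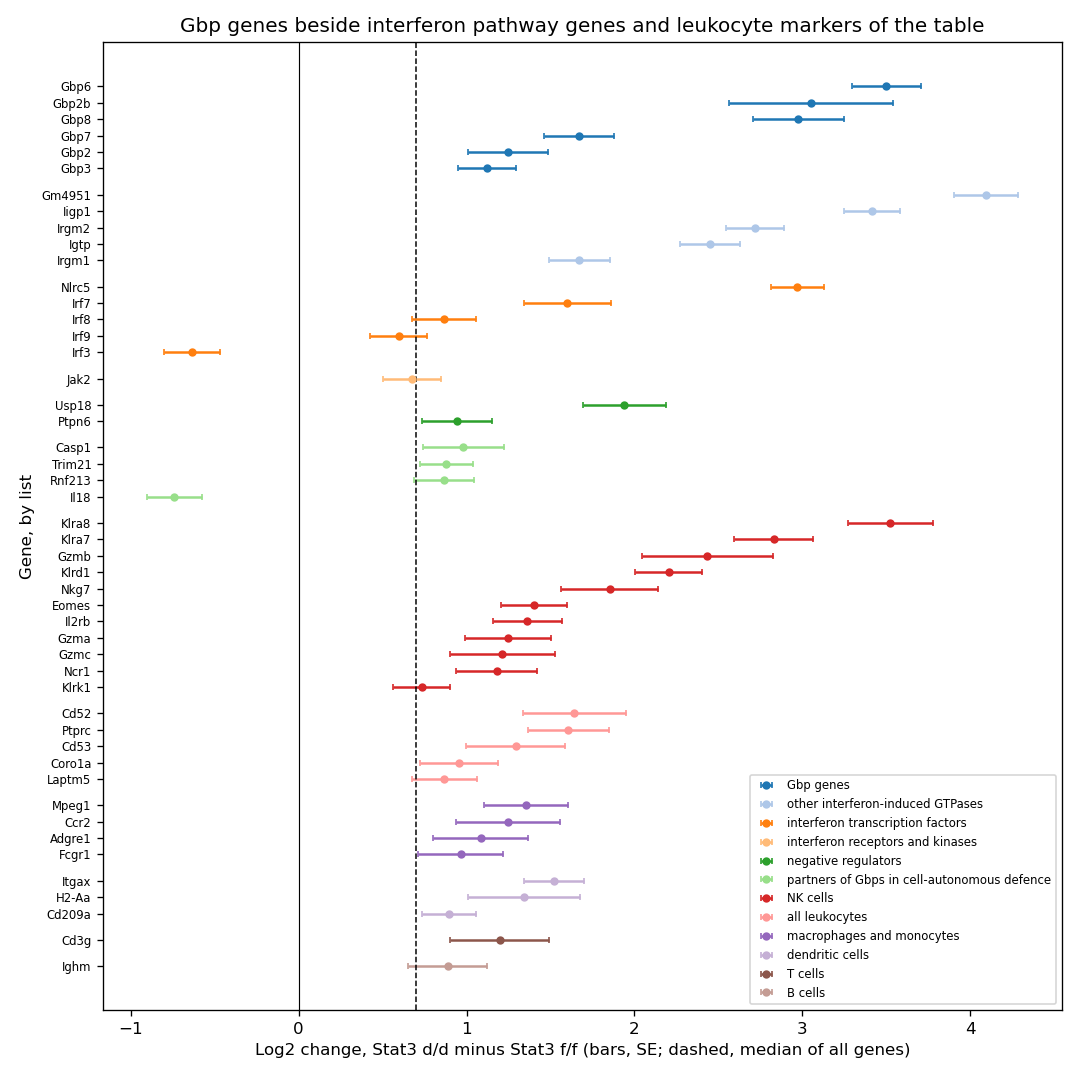
Log2 change (Stat3 d/d minus Stat3 f/f, bars are SE) of the 6 Gbp genes by their brightest probe set, of interferon pathway genes by role and of leukocyte markers; the dashed line is the median of all genes, 0.70. Gm4951, Iigp1, Nlrc5, Klra8 and Klra7 lie near Gbp6, Gbp2b and Gbp8, and of the genes plotted only Irf3 and Il18 lie under 0.

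The last comparison set the Gbps beside other genes of the interferon pathway, ordered by role. Of 82 listed genes 17 are in the table, 15 higher and 2 lower in Stat3 d/d, with a median of 0.98; the 987 genes had a median of 0.70, with 66.9% higher and 33.1% lower. After median centring or quantile normalization 9 were higher past the threshold, and Jak2, Irf8, Irf9, Ptpn6, Casp1 and Rnf213 did not pass. None of the 9 listed interferon genes is among the selected rows of the table, Ifng included, so ligands were not analysed here. Among 9 receptor and kinase genes only Jak2 is in the table, at 119, 106 and 111 in Stat3 d/d, against 73.6, 58.9 and 77.7 in Stat3 f/f (0.68, SE 0.17). That is below the median change of the table.

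Of 12 transcription factor genes 5 are in the table, 4 of them higher. Nlrc5, the MHC class I transactivator, read 88.3, 92.1 and 81.9 in Stat3 d/d, against 10.9, 9.68 and 10.3 in Stat3 f/f (2.97, SE 0.16), a change close to that of Gbp8. Irf7, a factor that amplifies type I interferon responses, read 94.3, 132 and 85.9 in Stat3 d/d, against 22.2, 42.9 and 37.8 in Stat3 f/f (1.60, SE 0.26). Irf8, a factor of myeloid cells, changed by 0.87 (SE 0.19) and Irf9, a DNA-binding factor of the type I interferon response, by 0.60 (SE 0.17). Irf3, which acts upstream of type I interferon production, was lower at 15.7, 18.9 and 16.1 in Stat3 d/d, against 24.5, 26.5 and 29.3 in Stat3 f/f (-0.64, SE 0.17). Both negative regulators in the table, of 8 listed, rose: the ISG15 protease Usp18 by 1.94 (SE 0.25) and the phosphatase Ptpn6, mainly of blood cells, by 0.94 (SE 0.21).

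Of 29 other interferon-induced GTPases listed, 5 are in the table, and all 5 were higher in Stat3 d/d. The list does not hold every such gene. Gm4951, annotated in mouse among the interferon-inducible GTPases, read 96.4, 140 and 112 in Stat3 d/d, against 6.31, 4.85 and 6.32 in Stat3 f/f. Its change of 4.09 (SE 0.19) was larger than that of any Gbp probe set, and its replicate 2 was the highest Stat3 d/d array, as for Gbp6. The IRG genes Iigp1, Irgm2, Igtp and Irgm1 changed by 3.42 (SE 0.16), 2.72 (SE 0.17), 2.45 (SE 0.18) and 1.67 (SE 0.18). Of these, Irgm2 read 277, 275 and 280 in the 3 Stat3 d/d arrays, and Igtp 590, 587 and 586, a narrower spread than in any Gbp probe set. Of 15 partners of Gbps in cell-autonomous defence 4 are in the table. The inflammasome protease Casp1 (0.98, SE 0.24) and the ubiquitin ligases Trim21 (0.88, SE 0.16) and Rnf213 (0.87, SE 0.18) were higher, and the cytokine Il18, which inflammasome proteases process, was lower at 48.2, 42.6 and 44.9 in Stat3 d/d, against 76.3, 68.6 and 84.5 in Stat3 f/f (-0.74, SE 0.16).

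Genes most like the Gbps were sought among the other 981 genes by Pearson's r with the mean standardised profile of the 6 Gbp genes over the 6 arrays. Gm4951 came first (r = 0.997), followed by Uba7, the enzyme that activates ISG15 (0.996), the fucosyltransferase gene Fut10 (0.996), the phospholipid enzyme gene Cds1 (0.995) and the IRG gene Ifi47 (0.995), which is in the table but not in the list above, with a change of 2.62 (SE 0.17). Since the table was selected for the group difference, 345 of the 981 genes had an r above 0.9, so such values are common here. With group means taken off, 21 did. The highest were Hemk1 (0.987), Uba7 (0.984), the nucleotide kinase gene Cmpk2 (0.977), Pi16 (0.967) and the oligoadenylate synthetase gene Oas2 (0.965). With so few arrays an r this high can also arise between unrelated genes. Whether these genes vary with the Gbps was not tested. Uba7, with a change of 0.75 (SE 0.16), was the only gene among the first 5 by both measures. Hemk1 and Pi16 were lower in Stat3 d/d, by changes of -0.59 and -1.19.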

How the data were processed

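The labels' protocols describe 6 uterine RNA samples made into biotinylated cRNA and read on Affymetrix arrays. Groups were taken from source names, replicate numbers from titles. The deposited intensity values are linear; RMA, a multi-array background correction and quantile normalization, is named without a version in the submitters' processing notes, and no source used here records the return from its log2 scale, the selection of rows, detection calls or the genome build. The number of arrays limits the precision.

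By the platform annotation 1191 probe sets had 1 symbol, 57 several and 134 none; 1186 identifiers matched RefSeq (GRCm38.p6), which changed 0 symbols. In lists and pairs a gene was represented by its brightest probe set over all 6 arrays. Values were compared as log2(intensity + 1), Stat3 d/d minus Stat3 f/f, with limma's moderated linear model (version 3.58.1, R 4.3.3) without covariates, and p-values were adjusted by Benjamini-Hochberg over all 1382 probe sets, and differences between members by exact permutation in SciPy 1.17.1. The limma fit was tested on simulated data. Members and lists were chosen with earlier results of these data known. The genes named are all members, Stat3, up to 5 genes per pathway role and 3 per marker list by smallest adjusted p, and the 5 most alike by each measure; markers that lost their call under a scaling, and genes not analysed here, are named besides.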

Additional observations from a re-analysis of the deposited data

How the results depend on the processing

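All 9 Gbp probe sets stayed higher in Stat3 d/d and past the threshold in each of the 135 refits of a probe set, over 15 alternatives: an intensity trend, no variance moderation, no pseudocount, quantile normalization, median centring, array weights, removal of probe sets in the dim 0.25 of the table, omission of any 1 array, a replicate block and 45000 assumed tests. The largest adjusted p was 0.0349 (Gbp2, 1435906_x_at). Over the whole table, where 931 probe sets were called higher in the main fit, 904 to 927 were with any 1 array left out. That count was 921 without variance moderation, and 931 with an intensity trend, with array weights or without a pseudocount. As the rows were selected on this comparison, staying called under the alternatives just counted does not set the Gbps apart. Under both scalings and 45000 assumed tests fewer probe sets were called higher, but the Gbps were chosen with results of these data known. After quantile normalization 9 interferon pathway genes were higher past the threshold, and 436 of all probe sets; after median centring 9 and 422. Median centring shifts all changes downward by one amount; the cause of the other moves was not tested. With 45000 assumed tests limma called 0 lower pathway genes and 0 lower markers (2 and 2 at an unadjusted p under 0.05), 15 higher markers in place of 26, and 387 higher and 131 lower probe sets. Some differences between members turned sign. Gbp2b minus Gbp8 was -0.041 without a pseudocount and ran from -0.47 to 0.73 when 1 array was left out, Gbp2 minus Gbp3 from -0.059 to 0.47, and Gbp6 minus Gbp2b from -0.083 to 0.88; the cause was not tested. The titles share the replicate numbers 1 and 2 only, and deviations from the group means correlated at 0.09 and 0.03 for them, so the numbers were not taken as pairs. With the replicate block the contrast rests on replicates 1 and 2 alone, as each other number occurs in 1 group only. Few arrays are then left to measure spread. In that fit 9 Gbp probe sets, 886 higher and 398 lower probe sets in all passed, with Gbp2b at 3.53 and Gbp6 at 3.65. No depth is known for arrays, and without detection calls the signal over background of the dim Stat3 f/f values of Gbp8 and of 1438676_at (Gbp6) is not known.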
